A study of Mus musculus with 16 samples.

Results

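The core circadian clock genes measured here were Arntl (also called Bmal1), Clock, Per1, Per2, Per3, Cry1, Cry2, Nr1d1, Nr1d2 and Dbp, 10 genes of the 54532 in the deposited table, found by exact gene name. All 10 were counted in every mouse and passed the filter on low counts. RNA was sequenced from the hippocampus of 16 mice in 4 groups of 4: WT mice given vehicle water (WT), WT mice given 6 mM nicotinamide riboside (NR) in drinking water (WT + NR), hTau.P301S mice given vehicle water (hTau.P301S) and hTau.P301S mice given 6 mM NR (hTau.P301S + NR). NR is a precursor of NAD+, and hTau.P301S mice carry a human tau transgene with the P301S mutation, driven by the neuronal Thy1 promoter. By the labels, treatment began at 12 months of age and lasted 3 months, and all mice went through behavioral tests before tissue was taken at 15 months; the study's text gives a younger age. The strain background and the hour of day at which each mouse was sacrificed are not given in the sources used here.

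The mammalian clock is a feedback loop of transcription. ARNTL and CLOCK (or its relative NPAS2) form a dimer that binds E-boxes and drives the Per and Cry genes, whose proteins return to the nucleus and repress the dimer. The same dimer drives Nr1d1 and Nr1d2, which encode the nuclear receptors REV-ERBα and REV-ERBβ, repressors of Arntl, and Dbp, a PAR bZIP transcription factor that activates genes with a D-box. The loop is tied to NAD+ through Nampt, a clock-driven gene for the rate-limiting enzyme of NAD+ salvage, and through the NAD+-dependent deacetylase SIRT1, which acts on the ARNTL:CLOCK complex. In most tissues Dbp, Nr1d1 and the Per genes have large daily swings opposite in phase to Arntl, so a level in tissue taken at 1 hour of 1 day depends on that hour.

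Letters that factors of this loop bind were looked for in the members' own promoters. RefSeq promoter windows of build GRCm38.p6, mostly upstream of a RefSeq transcription start, were found for 9 of the 10 genes, and none for Per2. Both strands were searched for the E-box CACGTG, the D-box TTATGTAA or TTACGTAA, the core of the element bound by ROR and REV-ERB receptors (TAGGTCA or TGGGTCA) and the cyclic AMP response element TGACGTCA. An E-box was found in the windows of Cry1 and Per1, 2 copies of a D-box in that of Per3, and a ROR core in that of Arntl, 31 bases after the start. The windows of Clock, Cry2, Nr1d1, Nr1d2 and Dbp held none of these motifs, and no member's window held the cyclic AMP response element. Across all 32851 windows, 7.15% held the E-box, 1.06% a D-box, 6.45% a ROR core and 1.79% the cyclic AMP response element. As shares of genes with a match in any window, these were 8.09%, 1.23%, 7.35% and 2.03%. The window of Per1 lies before a RefSeq start that is inside the gene as annotated, downstream of its outermost start. The 3 stretches are shown because they hold the letters that the ARNTL:CLOCK dimer and DBP, products of 3 members, are known to bind, with the motif in capitals and the strand of the gene written 5′ to 3′:
Cry1, chr10:85185079-85185144, - strand, E-box 60 bases before the start of its window's transcript: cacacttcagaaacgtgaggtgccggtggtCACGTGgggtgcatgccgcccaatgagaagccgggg
Per1, chr11:69098753-69098818, + strand, E-box 166 bases before the internal start: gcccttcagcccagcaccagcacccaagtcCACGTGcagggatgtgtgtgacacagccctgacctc
Per3, chr4:151044786-151044900, - strand, D-boxes 205 and 158 bases before the start of its window's transcript: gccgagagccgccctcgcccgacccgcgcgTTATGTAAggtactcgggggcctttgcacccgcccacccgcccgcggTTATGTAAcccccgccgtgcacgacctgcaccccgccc
A match is a run of letters in the reference genome; binding was not measured.

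Libraries held 16490261 to 21915362 counts. One library stood apart: hTau.P301S replicate 1 had 14.4% of its counts on mitochondrial genes and 19467 genes detected, against 4.48% to 7.07% and at least 22199 genes in the other 15. Markers of hippocampal neurons were present in every mouse, with a summed level of 320.2 to 674 CPM (counts scaled to the size of the library). Dissections differed in what else they held. Choroid plexus markers varied most within groups, with summed levels of 19.0 to 7755 CPM in WT (median 1272), 51.4 to 9572 in WT + NR (median 2916), 17.7 to 4634 in hTau.P301S (median 37.0) and 52.2 to 3508 in hTau.P301S + NR mice (median 246); their part in the results was not tested. Striatal marker genes summed to 459.8 CPM in WT replicate 2, 86.4 in WT + NR replicate 3 and 153.6 in hTau.P301S + NR replicate 4, against 18.8 to 43.3 CPM in the other 13 mice. The list for the suprachiasmatic nucleus, the site of the master clock in the hypothalamus, summed to 889.6 CPM in WT replicate 2 and 346.1 in WT + NR replicate 3, nearly all of it Avp (vasopressin), against at most 49.5 CPM elsewhere. Six6, also on the list, was at 3.31 and 2.86 CPM in these 2 mice and at 0 to 0.47 CPM in the other 14. Vip and Nms, the rest of the list, were together within the range of the other 14 mice in these 2. Endothelial markers summed to 56.2 to 98.6 CPM in hTau.P301S mice, against 93.5 to 195.5 in WT, 93.9 to 154.5 in WT + NR and 116.3 to 120.7 in hTau.P301S + NR mice; their part in the results was not tested. In bulk tissue, fewer cells of a type and less RNA per cell cannot be told apart. The clock genes' comparisons are given with and without these 4 mice.

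None of the 10 clock genes passed the study's limits (an adjusted p below 0.05 together with a log2 fold change beyond 0.5 either way; for the interaction, the adjusted p alone) in any of 6 comparisons: hTau.P301S against WT, NR against vehicle in each genotype, the genotypes under NR, the genotype difference averaged over NR, and the interaction of NR with genotype. The test was edgeR's quasi-likelihood test, where the study used DESeq2, with Benjamini-Hochberg adjustment over all genes. In the same fits 0.00611% of all genes tested passed for hTau.P301S against WT, 0.0061% for NR in hTau.P301S, 0% for NR in WT, 0.054% for the genotypes under NR, 0.159% for the averaged genotype difference and 0% for the interaction. At an unadjusted p under 0.05 the members' count was also 0 of 10 in each comparison, where all genes gave 7.14%, 12.9%, 0.79%, 6.09%, 9.06% and 7.92% in the same order. In 0 of 10 members did the values of 1 group lie wholly above those of the other in any of the 5 comparisons of groups, where this was so for 6.24%, 11.9%, 0.754%, 3.73% and 0.194% of all genes. The intervals set the size of difference these mice could still hide. The 95% interval of the log2 fold change lay within -1 and 1, that is, within 2-fold, for 8 of 10 members in hTau.P301S against WT, 9 of 10 for NR in hTau.P301S, and 10 of 10 for NR in WT, for the genotypes under NR and for the averaged genotype difference. It lay within -0.5 and 0.5 for 0, 1, 5, 6 and 7 members in turn. For the interaction these counts were 7 and 0. The absence of a call therefore does not show that the groups were alike.

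**Figure D1:**
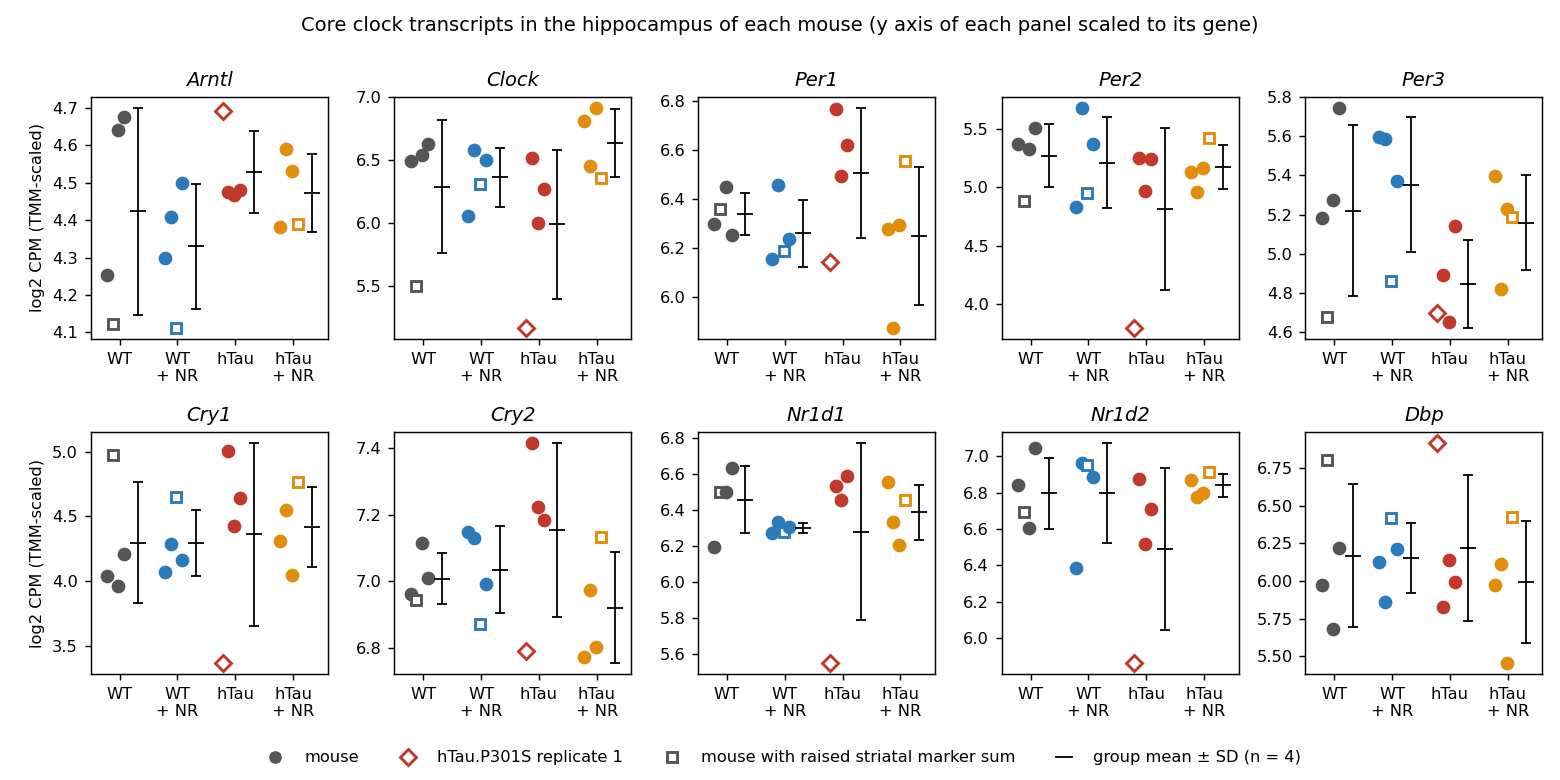
Level of each clock gene in each mouse by group, as log2 CPM on the y axis (each panel has its own range; hTau stands for hTau.P301S). Points are mice, bars are the group mean ± SD over 4 mice, the diamond is hTau.P301S replicate 1 and squares are the 3 mice with a raised striatal marker sum. The groups overlap in all 10 panels, and the diamond is the lowest of 16 mice for Clock, Per2, Cry1, Nr1d1 and Nr1d2 and the highest for Arntl and Dbp.

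Arntl (ENSMUSG00000055116, chr7:113207465-113314126, + strand) encodes the obligate partner of CLOCK in the activator dimer. Its level was 19.0, 17.3, 24.8 and 25.5 CPM in WT mice (replicates 1 to 4) and 19.6, 21.1, 17.2 and 22.5 CPM in WT + NR mice. It was 25.7, 22.1, 22.01 and 22.2 CPM in hTau.P301S mice and 20.7, 24.0, 23.0 and 20.8 CPM in hTau.P301S + NR mice. The WT mice split into a lower and an upper pair whose range holds all but 2 of the other 12 mice. The 2 lowest of 16 were WT replicate 2 and WT + NR replicate 3, whose suprachiasmatic marker sums were raised, nearly all by Avp. The log2 fold change was 0.09 (95% interval -0.35 to 0.53, adjusted p = 0.869) for hTau.P301S against WT and -0.06 (95% interval -0.40 to 0.27, adjusted p = 0.831) for NR in hTau.P301S. Averaged over NR, the genotype difference was 0.11 (95% interval -0.11 to 0.34, adjusted p = 0.755).

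Clock (ENSMUSG00000029238, chr5:76209868-76304792, - strand) encodes the other subunit of the dimer, a histone acetyltransferase. In WT mice its level was 89.5, 45.2, 92.8 and 98.5 CPM, and in WT + NR mice 66.3, 95.5, 79.2 and 90.4 CPM. In hTau.P301S mice it was 35.7, 91.4, 63.7 and 76.9 CPM, and in hTau.P301S + NR mice 112, 87.2, 120.4 and 81.6 CPM. The 2 lowest of the 16 mice were hTau.P301S replicate 1 and WT replicate 2, and the 2 highest were both hTau.P301S + NR mice, yet the NR-treated group reached down into the range of the untreated one. NR in hTau.P301S gave the largest difference of any member in the 6 comparisons with all mice but did not pass, 0.58 (SE 0.28, 95% interval -0.06 to 1.22, unadjusted p = 0.0690, adjusted p = 0.367). The interaction of NR with genotype was 0.56 (95% interval -0.27 to 1.39, adjusted p = 0.602), and NR in WT gave 0.03 (95% interval -0.50 to 0.56, adjusted p = 0.9999).

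Per1 (ENSMUSG00000020893, chr11:69095217-69109960, + strand) is the period gene that also answers to glucocorticoids and to neuronal activity. Its level was 78.5, 81.9, 87.2 and 76.1 CPM in WT mice and 71.2, 87.7, 72.8 and 75.3 CPM in WT + NR mice. It was 70.6, 109, 89.9 and 98.2 CPM in hTau.P301S mice and 77.4, 58.5, 78.3 and 93.9 CPM in hTau.P301S + NR mice. Replicates 2, 3 and 4 of hTau.P301S were above all 8 WT mice, with and without NR, while replicate 1 was below all 4 untreated WT mice. The log2 fold change was 0.18 (95% interval -0.21 to 0.58, adjusted p = 0.690) for hTau.P301S against WT, -0.26 (95% interval -0.70 to 0.19, adjusted p = 0.487) for NR in hTau.P301S and -0.07 (95% interval -0.30 to 0.16, adjusted p = 0.9999) for NR in WT.

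Per2 (ENSMUSG00000055866, chr1:91415982-91459324, - strand) encodes a repressor that binds the CRY proteins. Its level was 41.3, 29.4, 39.97 and 45.3 CPM in WT mice and 28.4, 51.3, 30.8 and 41.3 CPM in WT + NR mice. It was 13.8, 38.1, 31.1 and 37.8 CPM in hTau.P301S mice and 35.0015, 31.0, 35.8 and 42.7 CPM in hTau.P301S + NR mice. Per2 had the widest range of the set, 3.72-fold over 16 mice, and 1.805-fold over the 15 mice other than hTau.P301S replicate 1, the lowest. The genotype difference averaged over NR was -0.22 (95% interval -0.63 to 0.19, adjusted p = 0.739).

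Per3 (ENSMUSG00000028957, chr4:151003652-151044665, - strand), the period gene with the 2 D-boxes shown above, is not required for the rhythm itself. Its level was 36.2, 25.4, 38.7 and 53.6 CPM in WT mice and 48.2, 48.0, 28.9 and 41.4 CPM in WT + NR mice. It was 25.8, 29.5, 25.0 and 35.2 CPM in hTau.P301S mice and 42.1, 28.1, 37.4 and 36.3 CPM in hTau.P301S + NR mice. All 4 hTau.P301S mice were below the 3 highest WT mice, and the lowest WT mouse, replicate 2, lay among them. Averaged over NR, the genotype difference had the smallest unadjusted p of any member in any of the 6 comparisons with all mice and did not pass, -0.31 (SE 0.16, 95% interval -0.65 to 0.02, unadjusted p = 0.0660, adjusted p = 0.585). Without NR it was -0.41 (95% interval -0.97 to 0.14, adjusted p = 0.598) and under NR -0.21 (95% interval -0.62 to 0.20, adjusted p = 0.818).

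The cryptochromes Cry1 and Cry2 encode the strongest repressors of the dimer. Cry1 (ENSMUSG00000020038, chr10:85131700-85185064, - strand), which carries the E-box shown above, was at 16.3, 31.4, 15.5 and 18.3 CPM in WT mice and 16.6, 19.3, 25.0 and 17.8 CPM in WT + NR mice. It was at 10.2, 32.04, 21.4 and 24.8 CPM in hTau.P301S mice and 19.7, 23.3, 16.4 and 27.0 CPM in hTau.P301S + NR mice. The lowest and the highest of all 16 values were both in the hTau.P301S group, in replicates 1 and 2, and in each of the other groups the highest value came from the mouse with the raised striatal marker sum. The averaged genotype difference was 0.13 (95% interval -0.33 to 0.59, adjusted p = 0.895).

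Cry2 (ENSMUSG00000068742, chr2:92403646-92434043, - strand) was at 124, 123, 139 and 129 CPM in WT mice and 142, 140.0, 117 and 127 CPM in WT + NR mice. It was at 111, 171, 149 and 145 CPM in hTau.P301S mice and 109, 126, 111 and 140.1 CPM in hTau.P301S + NR mice. Replicates 2, 3 and 4 of hTau.P301S were the 3 highest of the 16 mice, and replicate 1 the second lowest. The log2 fold change was 0.16 (95% interval -0.24 to 0.56, adjusted p = 0.728) for hTau.P301S against WT and -0.25 (95% interval -0.65 to 0.15, adjusted p = 0.461) for NR in hTau.P301S. The averaged genotype difference had the narrowest interval of the set in that comparison, 0.02 (95% interval -0.19 to 0.24, adjusted p = 0.964).

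The REV-ERB receptors are direct targets of the dimer and repress Arntl. Nr1d1 (ENSMUSG00000020889, chr11:98767932-98775333, - strand) was at 73.2, 90.3, 90.5 and 99.3 CPM in WT mice and 77.3, 80.7, 77.5 and 79.1 CPM in WT + NR mice. It was at 46.7, 92.5, 87.6 and 96.2 CPM in hTau.P301S mice and 94.0, 80.5, 73.8 and 87.7 CPM in hTau.P301S + NR mice. The WT + NR mice varied by a coefficient of variation of 2.002%, the smallest of any member in any group, and hTau.P301S replicate 1 was far below the other 15. Nr1d1 gave the smallest p of the set for NR in WT, -0.16 (SE 0.11, 95% interval -0.41 to 0.09, unadjusted p = 0.181, adjusted p = 0.9999).

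Nr1d2 (ENSMUSG00000021775, chr14:18204054-18239127, - strand) was at 115, 103, 97.2 and 132 CPM in WT mice and 83.6, 125, 124 and 118 CPM in WT + NR mice. It was at 58.0, 117, 91.7 and 105 CPM in hTau.P301S mice and 117, 109.6, 111 and 120.4 CPM in hTau.P301S + NR mice. The single low value in hTau.P301S, again replicate 1, and the one in WT + NR replicate 1 are the only values under 90 CPM. The log2 fold change was -0.27 (95% interval -0.79 to 0.26, adjusted p = 0.668) for hTau.P301S against WT and 0.30 (95% interval -0.18 to 0.78, adjusted p = 0.461) for NR in hTau.P301S.

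Dbp (ENSMUSG00000059824, chr7:45705088-45710203, + strand) is an output gene with a large daily swing in many tissues. Its level was 62.8, 112, 51.1 and 74.4 CPM in WT mice and 69.8, 57.9, 85.4 and 73.9 CPM in WT + NR mice. It was 121, 56.6, 70.4 and 63.6 CPM in hTau.P301S mice and 62.7, 69.2, 43.7 and 85.8 CPM in hTau.P301S + NR mice. Each group had 1 mouse at its top: the highest 2 of 16 were hTau.P301S replicate 1 and WT replicate 2, followed by hTau.P301S + NR replicate 4 and WT + NR replicate 3, which are the mouse with the high mitochondrial share and the 3 with raised striatal marker sums. The part of these tissue and library differences in the level of Dbp was not tested. The log2 fold change was 0.06 (95% interval -0.68 to 0.80, adjusted p = 0.957) for hTau.P301S against WT, -0.26 (95% interval -0.94 to 0.41, adjusted p = 0.643) for NR in hTau.P301S and -0.04 (95% interval -0.46 to 0.38, adjusted p = 0.971) for the averaged genotype difference. Exons of Dbp share 539 bases, 18.0% of its length, with the antisense gene Sphk2, and those of Nr1d1 share 263 bases, 8.55%, with Thra. Whether the counting used strand is not given in the sources used here, so reads in these stretches may belong to either gene. Over the 16 mice Thra was at 651 to 1081 CPM and Sphk2 at 19.9 to 32.5 CPM. The part of such reads in the level and spread of Nr1d1 and Dbp was not tested.

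**Figure D2:**
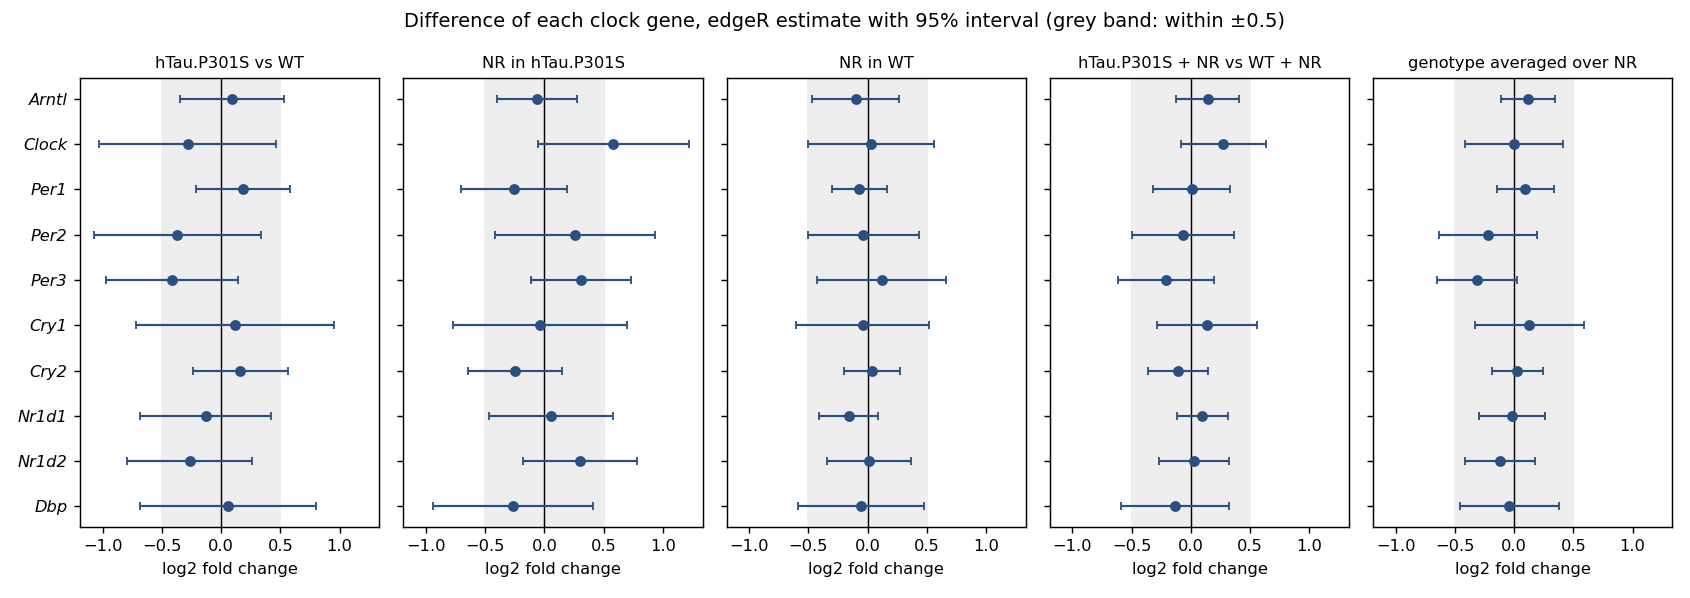
Log2 fold change of each clock gene (x axis) in 5 comparisons, 1 panel each; points are edgeR estimates, bars 95% intervals, and the grey band marks -0.5 to 0.5. All intervals include 0, and the largest estimate is that of Clock for NR in hTau.P301S, 0.58.

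The comparisons were repeated without the mice that stood apart. Without hTau.P301S replicate 1, 1 of 10 members had an unadjusted p under 0.05 for hTau.P301S against WT, where 11.8% of all genes did. This was Per1, at 0.28 (95% interval 0.01 to 0.55, unadjusted p = 0.0419, adjusted p = 0.412). For NR in hTau.P301S, 3 of 10 did, beside 18% of all genes: Clock at 0.38 (95% interval 0.01 to 0.76, unadjusted p = 0.0439, adjusted p = 0.264), Per1 at -0.35 (95% interval -0.69 to -0.01, unadjusted p = 0.0458, adjusted p = 0.268) and Cry2 at -0.34 (95% interval -0.61 to -0.07, unadjusted p = 0.0201, adjusted p = 0.200). These comparisons share the 3 remaining hTau.P301S mice, so the values of Per1 and Cry2 in them are not independent. In the interaction, 1 of 10 members, Cry2, had an unadjusted p under 0.05, beside 7.5% of all genes, at -0.37 (95% interval -0.70 to -0.05, unadjusted p = 0.0273, adjusted p = 0.639). None passed the limits, which 0.0832% of all genes did for hTau.P301S against WT, 0.197% for NR in hTau.P301S 0.436% for the averaged genotype difference and 0% for the interaction.

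When the 3 mice with raised striatal marker sums were left out as well, leaving 12 mice in groups of 3 (a choice made after the data were seen), the genotype difference averaged over NR was -0.43 (95% interval -0.72 to -0.15, unadjusted p = 0.00576, adjusted p = 0.112) for Per3 and 0.40 (95% interval 0.13 to 0.66, unadjusted p = 0.00675, adjusted p = 0.119) for Cry1. With all 16 mice edgeR's unadjusted p was 0.0660 for Per3 and 0.564 for Cry1. The mice left out held the highest Cry1 of WT, WT + NR and hTau.P301S + NR (31.4, 25.0 and 27.0 CPM) and the lowest of hTau.P301S (10.2). They also held the lowest Per3 of WT and WT + NR (25.4 and 28.9 CPM). These 2 differences thus depend on which mice were left out. With 12 mice 18.4% of all genes had an unadjusted p under 0.05. For hTau.P301S against WT, Per1, Per3 and Cry1 were under it, beside 16.3% of all genes, with Cry1 at 0.63 (95% interval 0.22 to 1.05, unadjusted p = 0.00787, adjusted p = 0.156) and Per3 at -0.53 (95% interval -0.97 to -0.09, unadjusted p = 0.0241, adjusted p = 0.237). For NR in hTau.P301S, Clock, Per1 and Cry2 were under it, beside 17.9% of all genes, and for the interaction the same 3 genes were, beside 13.4%, with Cry2 at -0.49 (95% interval -0.79 to -0.18, unadjusted p = 0.00422, adjusted p = 0.204) and Clock at 0.62 (95% interval 0.12 to 1.12, unadjusted p = 0.0193, adjusted p = 0.291). NR in WT gave 0 of 10 members, beside 1.81% of all genes. The genotypes under NR gave 0 of 10 as well, beside 11% of all genes. No member passed the limits with 12 mice either, which 0.139% of all genes did for hTau.P301S against WT, 0.0122% for NR in hTau.P301S, 0.169% for the genotypes under NR and 1.16% for the averaged genotype difference.

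Levels of different genes can be compared only per length. Over all 16 mice, in CPM per kilobase of exon (mean ± SD), the order from the top was Nr1d1 at 26.9 ± 4.11, Dbp at 24.2 ± 6.81, Cry2 at 20.8 ± 2.60, Nr1d2 at 19.96 ± 3.41 and Per1 at 14.5 ± 2.17. Cry1 at 6.27 ± 1.79, Per2 at 6.12 ± 1.47 and Clock at 6.04 ± 1.61 followed, then Per3 at 3.77 ± 0.92 and Arntl at 2.89 ± 0.35. Neighbours among the first 4 genes differed by less than the larger of their SDs, as did Cry1, Per2 and Clock among themselves and Per3 and Arntl, while the steps from Nr1d2 to Per1, from Per1 to Cry1 and from Clock to Per3 were larger than the SD of either gene. Among targets of the dimer, both REV-ERB genes, Dbp, Cry2 and Per1 stood above the genes for its 2 subunits. Other targets did not: Cry1 and Per2 were level with Clock, and Per3 was below it and close to Arntl.

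Spread within groups also differed between members. Over all 16 mice the highest value was 1.498 times the lowest for Arntl and 1.56 times for Cry2, against 2.76 for Dbp, 3.15 for Cry1, 3.37 for Clock and 3.72 for Per2. Replicate 1 of hTau.P301S lay outside the range of the other 15 mice for 7 of the 10 genes. Without it, the SD within groups on the log2 scale was 0.13 for Nr1d1 and Cry2, at percentile 18.1 and 16.0023 among genes of like level. Clock and Dbp each had an SD of 0.34, at percentiles 83.3 and 83.2. Per3 and Cry1 were at percentiles 80.3 and 78.8. With all 16 mice the SD was 0.27 for Nr1d1, at percentile 39.0, and 0.41 for Dbp, at percentile 67.4. So without hTau.P301S replicate 1, Nr1d1, a gene with a large daily swing in other tissues, varied less than most genes of its level between mice of 1 group, and Dbp more. With that mouse included, both stood nearer the middle.

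Whether members moved together from mouse to mouse was asked with the correlation of group-centred log2 CPM for all 45 pairs, with a two-sided permutation of mice within groups (100000 resamples) and Benjamini-Hochberg adjustment over the 45. With 16 mice 4 pairs had an adjusted p under 0.05. Clock and Dbp went in opposite directions (r = -0.86, rho = -0.79, permutation p = 0.00124, adjusted p = 0.0256; adjusted p = 0.0513 for rho). Per2 went with Nr1d2 (r = 0.86, rho = 0.80, permutation p = 0.00163, adjusted p = 0.0256; adjusted p = 0.0135 for rho). Per1 and Per2 had r = 0.74 and rho = 0.67 (permutation adjusted p = 0.0256 and 0.0935), and Clock and Per2 r = 0.82 and rho = 0.69 (permutation adjusted p = 0.0361 and 0.0895). Next, the 2 mice farthest from the median of the pair's first gene were left out, with the group means of all 16 mice kept. Then r was -0.70 for Clock and Dbp, 0.72 for Per2 and Nr1d2, 0.62 for Per1 and Per2, and 0.63 for Clock and Per2. Except for Per1 and Per2, the mice left out were hTau.P301S replicate 1 and WT replicate 2. Centred again over the other 14 mice, r was -0.63 for Clock and Dbp, 0.65 for Per2 and Nr1d2, and 0.52 for Clock and Per2. Within the 8 WT mice r was -0.77 for Clock and Dbp, and within the 8 hTau.P301S mice -0.93.

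The number of pairs that passed depended on the mice used. It was 0 of 45 without WT + NR replicate 2, without hTau.P301S + NR replicate 2 and without any 1 of the 4 hTau.P301S mice. The r of Clock and Dbp stayed at -0.85 to -0.86 in these settings, except without hTau.P301S replicate 1. Without that mouse it was -0.79 (adjusted permutation p = 0.161), and the r of Per2 and Nr1d2 was 0.65 (adjusted permutation p = 0.347). Without WT replicate 2 as well, the r of Clock and Dbp was -0.63 over 14 mice (a choice made after the data were seen), and over the 12 mice it was -0.52 (permutation p = 0.113). Removing each mouse's trend of level with gene length, a step added after the data were seen, brought the r of Clock and Per2 from 0.82 to 0.33 and left 0 pairs past the limit, with Clock and Dbp at -0.71. In the 15 mice the largest positive r was that of Cry1 and Dbp, 0.75 (permutation p = 0.0111, adjusted p = 0.161). With all 16 it was 0.04, with 0.87 within the 8 WT mice and -0.45 within the 8 hTau.P301S mice. Arntl and Dbp, opposite in phase over the day in most tissues, had r = -0.25 over 16 mice and -0.54 over 15. Each point is 1 library from 1 dissection, and the part of dissection and library quality in these relations was not tested.

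**Figure D3:**
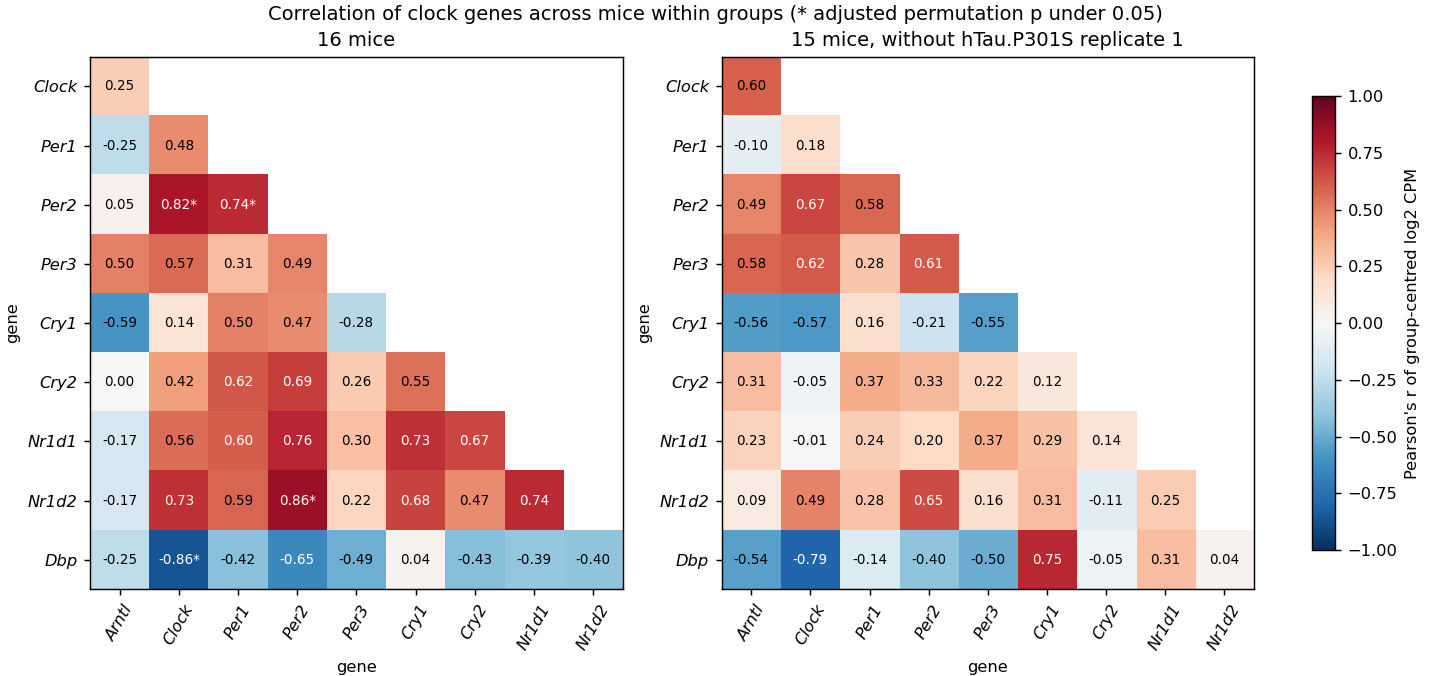
Pearson's r of group-centred log2 CPM for each pair of clock genes (both axes are genes; red positive, blue negative), for all 16 mice on the left and without hTau.P301S replicate 1 on the right. Asterisks mark an adjusted permutation p under 0.05: 4 pairs on the left, 0 on the right.

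**Figure D4:**
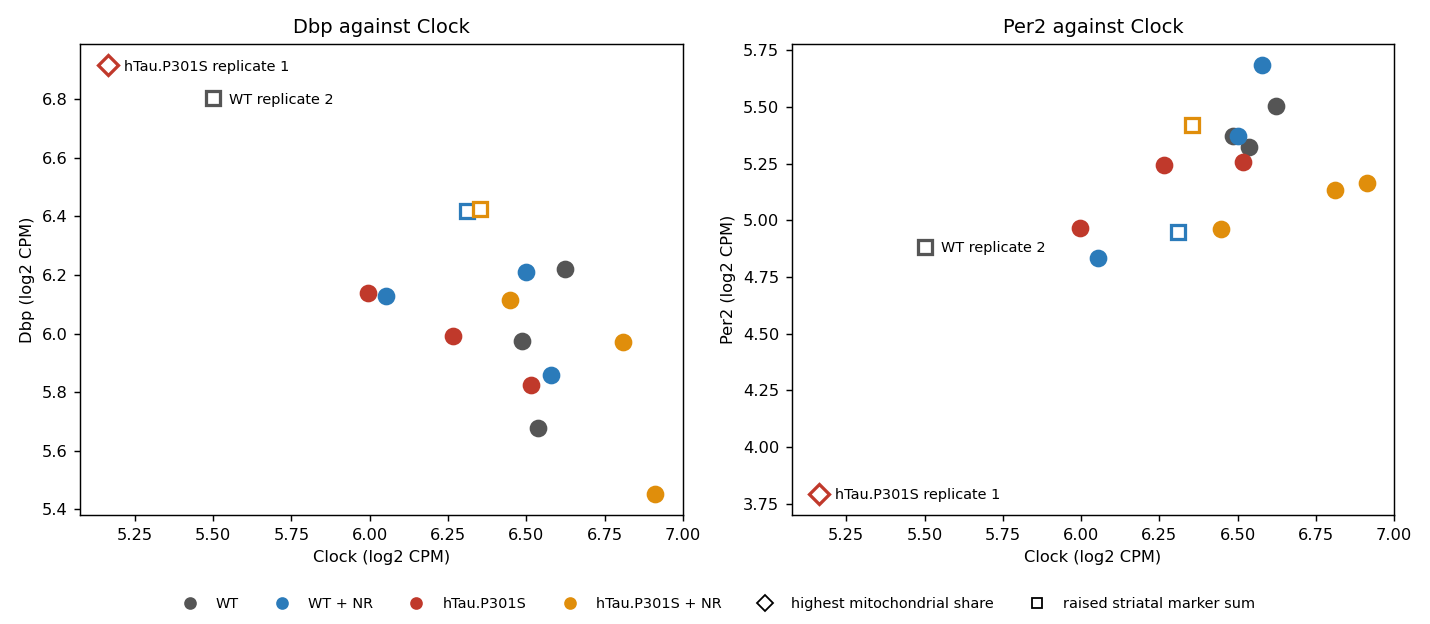
Dbp (left) and Per2 (right) against Clock, in log2 CPM, 1 point per mouse, coloured by group; the diamond is hTau.P301S replicate 1 and squares are mice with a raised striatal marker sum. The diamond and WT replicate 2 sit apart at low Clock, with the 2 highest Dbp values; in the other 14 mice the group-centred r of Clock and Dbp was -0.63.

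As a description, the genes whose group-centred pattern over 15 mice was most like that of 3 members were ranked among 10832 genes. For Dbp they were Ckb (brain creatine kinase, r = 0.92), H2afy2 (0.92), Ilvbl (0.91), Ppp2r3d (0.91) and Acy1 (0.90), and the most opposite were Ipmk (-0.96), Camta1 (-0.93) and Fam220a (-0.93). None of these 8 genes is on the clock lists used here; among the members, Cry1 ranked 390 from the top and Clock 535 from the bottom. For Arntl the most alike were Col4a1, a basement membrane collagen (0.90), Fam189a1 (0.89), Fezf2 (0.89), C230057M02Rik (0.89) and Myadm (0.88). For Cry2 they were Zfp865 (0.87), Ttyh3 (0.86), Smg9 (0.86), Dusp8 (0.85) and Map2k3 (0.84). With all 16 mice Smg9 had r = -0.36 with Cry2 and Map2k3 0.16, whereas Ckb and Ilvbl had 0.90 and 0.94 with Dbp. The 15 points share library, dissection and depth, so the values carry no test.

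The other genes of the pathway were taken from 6 lists of 63 genes in all. Of 20 partners and modulators of the clock, 0 were called in any comparison. At an unadjusted p under 0.05 in edgeR's test, 2 of 20 were lower for hTau.P301S against WT, where 7.14% of all genes had such a p. For NR in hTau.P301S 1 was higher and 1 lower, beside 12.9% of all genes. The averaged genotype difference also gave 1 higher and 1 lower, beside 9.06%. For the genotypes under NR and the interaction 1 was higher, beside 6.09% and 7.92%. Rorb, which encodes an activating receptor at the element that REV-ERBs repress, was at 22.1, 15.3, 19.9 and 24.2 CPM in WT mice and 8.03, 15.2, 9.37 and 12.7 CPM in hTau.P301S mice, which did not overlap, and at 21.9, 16.6, 22.4 and 30.9 CPM in hTau.P301S + NR mice. Its log2 fold change was -0.84 (SE 0.25, unadjusted p = 0.00916, adjusted p = 0.598) for hTau.P301S against WT, 1.01 (SE 0.26, unadjusted p = 0.00423, adjusted p = 0.367) for NR in hTau.P301S, which shares those mice, and 0.99 (SE 0.33, unadjusted p = 0.00911, adjusted p = 0.558) for the interaction. Without hTau.P301S replicate 1 it was -0.72 for hTau.P301S against WT and 0.90 for NR in hTau.P301S. In hTau.P301S against WT, groups did not overlap for 1 of the 20 genes, Rorb, beside 6.24% of all genes, and its nearest values were 15.2 and 15.3 CPM. For NR in hTau.P301S they did not overlap for 3 of 20, beside 11.9% of all genes. These were Rorb, Ciart and Gsk3b, the last at up to 212.5 CPM in hTau.P301S and at least 221.1 in hTau.P301S + NR mice. Ciart, a repressor of the dimer, was at 13.7, 16, 13.3 and 14.2 CPM in hTau.P301S mice and 9.59, 9.29, 10.8 and 12.3 CPM in hTau.P301S + NR mice, also without overlap, a log2 fold change of -0.45 (SE 0.17, unadjusted p = 0.0278, adjusted p = 0.367). Arntl2, the paralog of Arntl, was at a log2 fold change of -1.40 (SE 0.48) for hTau.P301S against WT and -1.11 (SE 0.32, unadjusted p = 0.00304, adjusted p = 0.272) for the averaged genotype difference, where Ciart was at 0.29 (SE 0.12). Gsk3b, a kinase gene whose product phosphorylates clock proteins and tau, was at 0.32 (SE 0.12, unadjusted p = 0.0209, adjusted p = 0.781) for the genotypes under NR. Npas2, the forebrain relative of Clock, gave -0.46 (SE 0.56, unadjusted p = 0.431, adjusted p = 0.756) for hTau.P301S against WT, and Rora, Bhlhe40 and Bhlhe41 lay between -0.12 and 0.02 there.

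Of the 10 further outputs, 0 were called in any comparison, and Tef and Hlf, the PAR bZIP relatives of Dbp, had log2 fold changes of -0.08 (SE 0.22) and -0.30 (SE 0.40) for hTau.P301S against WT and 0.01 (SE 0.21) and 0.15 (SE 0.36) for NR in hTau.P301S. Nfil3, the repressor that competes with DBP for the D-box, gave 0.14 (SE 0.22) and -0.09 (SE 0.20). Usp2 was the only output with an unadjusted p under 0.05, at -0.39 (SE 0.16, unadjusted p = 0.0421, adjusted p = 0.367) for NR in hTau.P301S and -0.62 (SE 0.26, unadjusted p = 0.0309, adjusted p = 0.558) for the interaction. That is 1 of 10 outputs in each, beside 12.9% and 7.92% of all genes. Of the 10 genes that couple the clock to NAD+, 0 were called. Nampt gave 0.08 (SE 0.12, unadjusted p = 0.504, adjusted p = 0.9999) for NR in WT and -0.04 (SE 0.26, unadjusted p = 0.881, adjusted p = 0.941) for NR in hTau.P301S, and Sirt1 0.03 (SE 0.12, unadjusted p = 0.785, adjusted p = 0.9999) and 0.12 (SE 0.21, unadjusted p = 0.584, adjusted p = 0.766). Sirt6, another NAD+-dependent deacylase, and Parp1, a consumer of NAD+, had unadjusted p-values under 0.05 for NR in hTau.P301S, at -0.74 (SE 0.23, unadjusted p = 0.0109, adjusted p = 0.367) and -0.55 (SE 0.18, unadjusted p = 0.0159, adjusted p = 0.367). These were 2 of 10, beside 12.9% of all genes. For the genotypes under NR, Sirt6 was at -0.52 (SE 0.19), the mitochondrial deacetylase gene Sirt3 at -0.45 (SE 0.17) and Nmnat3, a gene of NAD+ synthesis, at -0.60 (SE 0.23), each with an unadjusted p under 0.05, as had Nmnat3 in the averaged genotype difference, at -0.53 (SE 0.19). These were 3 of 10 and 1 of 10, beside 6.09% and 9.06% of all genes. For NR in WT only Cd38, which encodes an enzyme that consumes NAD+, had an unadjusted p under 0.05, at 0.51 (SE 0.22), 1 of 10 beside 0.79% of all genes.

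Beside the clock genes stood a list of 8 genes that glucocorticoids induce, as they do Per1. The list was chosen with earlier results of these data known, so its counts describe these mice and are not an independent test. For hTau.P301S against WT, 6 of 8 were higher at an unadjusted p under 0.05, beside 3.41% of all genes, with a list median log2 fold change of 0.99, against 0.02 for all genes and -0.04 for the 10 clock genes; 0 were called. Sgk1, a kinase gene, was at 80.5, 53.0, 56.2 and 55.7 CPM in WT mice and 139.6, 317, 168 and 299 CPM in hTau.P301S mice, a log2 fold change of 1.91 (SE 0.31, unadjusted p = 1.7e-04, adjusted p = 0.198). Tsc22d3, which encodes the anti-inflammatory protein GILZ, was at 55.3, 63.5, 50.8 and 56.4 and 88.6, 121, 84.2 and 149 CPM, a log2 fold change of 0.97 (SE 0.22, unadjusted p = 0.00166, adjusted p = 0.504). In both, all 4 hTau.P301S mice, replicate 1 included, were above all 4 WT mice. Plin4, a lipid droplet protein gene, rose in hTau.P301S mice averaged over NR, the only call among the 63 genes in any of the 6 comparisons, at a log2 fold change of 2.13 (SE 0.33, unadjusted p = 1.1e-05, adjusted p = 0.0104). Under NR, Plin4 did not pass, at 0.11 (SE 0.26, unadjusted p = 0.680, adjusted p = 0.932), and 0 of the 8 genes had an unadjusted p under 0.05 in edgeR's test of the genotypes, with a median of -0.03. In hTau.P301S against WT, the other 4 of the 6 were Plin4 at 4.14 (SE 0.62), Sult1a1 at 1.796 (SE 0.39), Fkbp5, a chaperone of the glucocorticoid receptor, at 1.01 (SE 0.33) and Errfi1 at 0.70 (SE 0.20). In the averaged genotype difference Sgk1, Tsc22d3, Errfi1 and Sult1a1 also had an unadjusted p under 0.05, at 0.85 (SE 0.21), 0.47 (SE 0.15), 0.38 (SE 0.15) and 0.95 (SE 0.27). For NR in hTau.P301S, which shares the hTau.P301S mice, 5 of 8 were lower at an unadjusted p under 0.05, beside 7.01% of all genes, with a median of -0.82, against 0.01 for the clock genes. These were Plin4 at -3.32 (SE 0.54), Sult1a1 at -1.58 (SE 0.44), Sgk1 at -1.43 (SE 0.36), Fkbp5 at -0.91 (SE 0.35) and Tsc22d3 at -0.72 (SE 0.20). The same 5 genes had an unadjusted p under 0.05 in the interaction, at -4.04 (SE 0.66), -1.69 (SE 0.54), -2.12 (SE 0.43), -1.09 (SE 0.45) and -1.01 (SE 0.31), and for NR in WT Sgk1 was at 0.70 (SE 0.20). Per1 had the sign of this list for hTau.P301S against WT and NR in hTau.P301S, at 0.18 and -0.26, with intervals that include 0. The members Arntl, Cry1, Cry2 and Dbp had these signs as well, and the 2 comparisons share the hTau.P301S mice. With DESeq2 as the tool, 4 of these 8 genes passed for hTau.P301S against WT, beside 0.702% of all genes, and 3 for NR in hTau.P301S, beside 1.73%, and 0 clock genes in either.

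**Figure D5:**
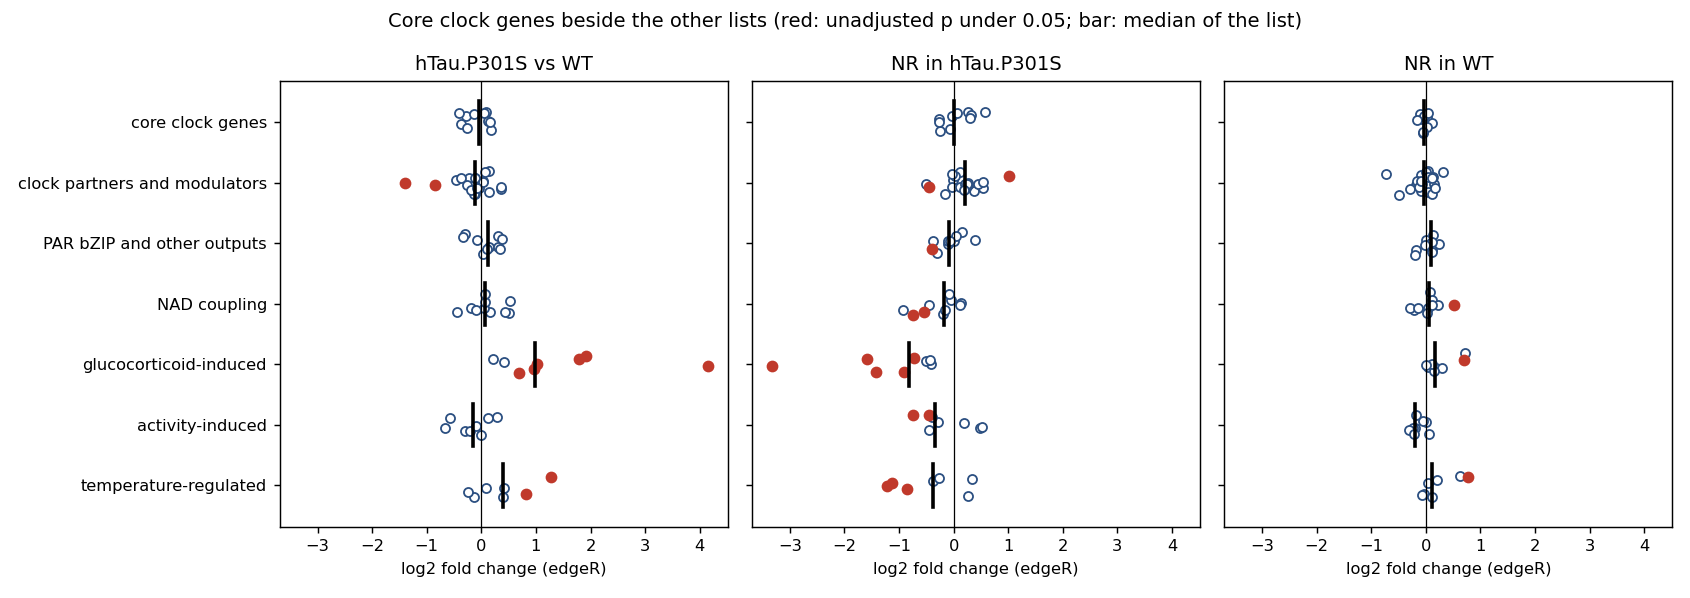
Log2 fold change (x axis) of each clock gene and each gene of the 6 other lists (y axis) in 3 comparisons; red points have an unadjusted p under 0.05 and bars are list medians. The clock genes centre on medians of -0.04, 0.01 and -0.04, and the glucocorticoid-induced genes on 0.99, -0.82 and 0.17; the left and middle panels share the hTau.P301S mice.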

How the data were processed

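Poly(A) RNA of 16 hippocampi, 1 per mouse and 4 mice per group, was sequenced. The authors trimmed reads, aligned them with STAR to mm10 and quantified genes with RSEM, and deposited raw counts per gene, whole numbers with no normalization; versions and the strand setting are not given in the sources used here. Libraries held 16490261 to 21915362 counts, and p-values measure the spread between mice. Counts were filtered with filterByExpr, scaled by TMM and tested with edgeR's quasi-likelihood test (edgeR 4.0.16, limma 3.58.1, R 4.3.3), within the 8 mice of each pair of groups, or all 16 for the averaged genotype difference and the interaction, with Benjamini-Hochberg adjustment over all genes tested. A call needed an adjusted p under 0.05 and, except in the interaction, an absolute log2 fold change above 0.5. DESeq2 1.42.0 was an alternative. Scripts were tested on simulated data. All members were named. Of the other lists, named genes were those called, those with an unadjusted p under 0.05, and 11 fixed partners, outputs and NAD+ genes. The 5 genes most like a member were ranked by r, among genes with a mean log2 CPM above 3, and the 3 most opposite were added after their values were seen. The members and lists were chosen with earlier results of these data known.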

Additional observations from a re-analysis of the deposited data

Results flagged for a closer look

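In groups of 4 mice, a highest or lowest value was flagged by Dixon's criterion when its gap to the nearest mouse was too large a share of the group's range. For normally distributed values chance does this in about 1 in 20 groups. Marker sums are skewed and the same mice recur, so the count of flags cannot be held against that share. The criterion flagged 12 of 84 groups tested, 4 of them among the 40 groups of the clock genes. In log2 CPM, Arntl was at 4.69 in hTau.P301S replicate 1 (nearest mouse 4.48), Clock at 5.5003 in WT replicate 2 (nearest 6.49), Nr1d1 at 5.55 in hTau.P301S replicate 1 (nearest 6.45) and Nr1d2 at 6.39 in WT + NR replicate 1 (nearest 6.88).

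The other 8 were summed CPM of marker lists. The choroid plexus sum was 4634 in hTau.P301S replicate 2 (nearest mouse 39.5) and 3508 in hTau.P301S + NR replicate 2 (nearest 423). The striatal sum was 459.8 in WT replicate 2 (nearest 27.8), 86.4 in WT + NR replicate 3 (nearest 28.4) and 153.6 in hTau.P301S + NR replicate 4 (nearest 43.3). The suprachiasmatic sum was 889.6 in WT replicate 2 (nearest 20.2), 346.1 in WT + NR replicate 3 (nearest 19.2) and 13.4 in hTau.P301S replicate 3 (nearest 21.9). The part of these mice's tissue content in the clock genes' levels was not tested.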

How the results depend on the processing

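In 127 alternative fits (DESeq2, other scalings and filters, single mice left out, all mice in 1 fit and others) 0 clock genes were called in any comparison, and 18 fits had a member at an unadjusted p under 0.05. Of the 1270 member values 91 changed sign, and none of these was called. Sirt3, in the averaged genotype difference, was at 0.02 with all mice, at -0.29 without hTau.P301S replicate 1 (adjusted p = 0.302) and between -0.29 and 0.12 with any 1 mouse left out. Calls over all genes moved more: 1 for hTau.P301S against WT and 1 for NR in hTau.P301S by edgeR, and 115 and 283 by DESeq2. With all 16 mice in 1 fit they were 36 and 2 by edgeR, and 494 and 280 by DESeq2. The cause was not tested. The number of correlated pairs, 4 of 45, was 6 with no centring, 1 by Spearman's rho, and 0 with the length trend removed (16 or 15 mice), with 14 mice and with 12 mice, and 0 to 7 with 1 mouse left out. Replicate numbers did not pair the mice (correlations of same-numbered mice -0.54 to 0.29). With the replicate number as a block, 9 pairs passed and 0 clock genes were called. With 4 mice per group, differences under about 2-fold in the more variable members were beyond these data.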

Other observations

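Of 7 genes that respond to temperature, 0 were called in any comparison. In edgeR's test at an unadjusted p under 0.05, 2 of 7 were higher for hTau.P301S against WT, beside 3.41% of all genes. For NR in hTau.P301S 3 of 7 were lower, beside 7.01% of all genes. In the interaction 4 of 7 were lower, where 7.92% of all genes had such a p in either direction. The 2 that were higher in hTau.P301S mice were cold-inducible RNA-binding protein genes. Rbm3 was at 53.2, 62.1, 63.0 and 69.1 CPM in WT mice and 252, 105, 119 and 119 CPM in hTau.P301S mice, a log2 fold change of 1.27 (SE 0.31, unadjusted p = 0.00247, adjusted p = 0.561) in edgeR's quasi-likelihood test, and at 63.3, 86.3, 78.2 and 47.4 CPM in hTau.P301S + NR mice, where NR gave -1.13 (SE 0.33, unadjusted p = 0.00830, adjusted p = 0.367). Cirbp was at 62.5, 89.0, 70.7 and 68.6 CPM in WT mice, 217, 99.3, 110.3 and 86.1 CPM in hTau.P301S mice and 49.6, 70.4, 50.1 and 52.4 CPM in hTau.P301S + NR mice, where NR gave -1.22 (SE 0.31, unadjusted p = 0.00392, adjusted p = 0.367). For both genes hTau.P301S replicate 1 was the highest of 16 mice. Without it the log2 fold change for hTau.P301S against WT was 0.88 for Rbm3 and 0.43 for Cirbp, and for NR in hTau.P301S -0.73 and -0.82, with no adjusted p under 0.05 in edgeR's test. Of 8 genes induced by neuronal activity, 0 were called. For NR in hTau.P301S, 2 of 8 had an unadjusted p under 0.05, beside 12.9% of all genes. They were Junb at -0.75 (SE 0.27, unadjusted p = 0.0232, adjusted p = 0.367) and Nr4a1 at -0.45 (SE 0.17, unadjusted p = 0.0281, adjusted p = 0.367). For hTau.P301S against WT 0 of 8 had such a p, beside 7.14% of all genes. Of the temperature list, Rbm3 and Cirbp had interactions of NR with genotype of -1.22 (SE 0.37) and -1.15 (SE 0.35), with unadjusted p-values under 0.05 and 0 passing the adjusted limit, and Rbm3 was at 0.66 (SE 0.18) in the averaged genotype difference. For hTau.P301S against WT Cirbp was at 0.82 (SE 0.31). The heat shock gene Hspa1a was at -0.86 (SE 0.33) for NR in hTau.P301S, 0.77 (SE 0.32) for NR in WT, -1.21 (SE 0.32) for the genotypes under NR and -1.60 (SE 0.48) for the interaction, and Hspa1b at -0.59 (SE 0.26) and -0.99 (SE 0.42) for the genotypes under NR and the interaction.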
